A study of Mus musculus with 12 samples.

Results

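The 32 genes described here form the DNA replication and E2F target group: subunits of the MCM helicase, origin licensing and helicase activation factors, replicative polymerases, the sliding clamp and its loader, enzymes of deoxynucleotide synthesis, and 3 regulators of the G1/S transition. They were chosen by name from the 39017 genes of the count tables, with earlier results of these data known, and all 32 were found and passed the filter on low counts in every fit. RNA was sequenced from 4T1 cells, a mouse mammary carcinoma line used as a model of triple-negative breast cancer, in 12 libraries. The tumor groups were the KO-labelled group, called POGZ KO, and the VC group, whose genotype label is POGZ WT, with 3 tumors each. Tumors grew for 28 days after implantation into a mammary fat pad of BALB/c hosts, which were 8 weeks old, and were flash frozen whole. The culture groups carried the same labels, KO and VC, with 3 libraries each, grown in DMEM with 10% serum to 75% confluency. What VC stands for, whether the KO line is 1 clone or a pool, and whether replicates were separate cultures are not given in the sources used here, so a p-value measures only the spread between these libraries.

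The tumor libraries held 12128993 to 13043831 counts in the KO-labelled group and 4712001 to 8338828 in the VC group, and the cultures held 14724518 to 21863223, so the VC tumors were the shallowest. Pogz, the targeted gene, goes against its label at the RNA level. It was at 68.3 ± 0.43 CPM (counts scaled to the total of the library) in KO-labelled cultures and 50.3 ± 2.03 CPM in VC cultures (SD, n = 3 each), a log2 fold change of 0.45 (edgeR quasi-likelihood test, adjusted p = 3.66e-06). Pogz lies on chromosome 3, where the median log2 fold change of well expressed genes in culture was 0.33. With the median of each chromosome as an offset, an alternative added after the data were seen, Pogz was at 0.12 ± 0.04 (adjusted p = 0.0404, edgeR). In tumors it was at 107 ± 23.4 CPM in the KO-labelled group and 99.3 ± 11.9 CPM in the VC group (adjusted p = 0.944). Counts are per gene, so they do not show whether the edited stretch is transcribed, and every direction below follows the labels KO and VC. The 7 epithelial markers were detected in all 4 groups, summing to 1586 to 2131 CPM in tumors and 2951 to 3426 CPM in cultures. Of the listed markers of host cells, Laptm5 of leukocytes, Adgre1 of macrophages, Ly6g of neutrophils, Dcn and Lum of fibroblasts and Emcn of endothelium were at 0 in all 6 cultures and present in tumors. Other markers of the same lists were not at 0. The 8 macrophage and monocyte markers summed to 36.1 to 38.3 CPM in KO-labelled and 46.1 to 49.2 CPM in VC cultures. The 6 fibroblast markers summed to 19.0 to 19.6 and 27.0 to 30.3 CPM. Csf1r, Cd68, Col1a1 and Pdgfra passed the filter on low counts in cultures.

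Before a cell enters S phase, CDC6 and CDT1 load the ring-shaped MCM2-7 complex onto origins of replication. CDC45 and the GINS complex then join the ring to form the active helicase, and MCM10 assists its activation. Polymerase alpha with its primase subunits starts each new strand, the RFC complex loads the PCNA clamp, and polymerases delta and epsilon extend the strands. Ribonucleotide reductase, thymidylate synthase and thymidine kinase supply the precursors. Many of these genes are transcribed at the G1/S boundary under E2F factors, which are released when cyclin E and other cyclins with their kinases inactivate the RB family. Cell lines in log growth express the group at high level, and it is read as a sign of the share of cells that cycle.

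In culture the group was mostly lower in the KO-labelled cells. Of 32 genes, 18 were called lower and 4 higher at an adjusted p under 0.05 (edgeR quasi-likelihood test, Benjamini-Hochberg over all 15705 genes tested), and 10 were not called. In the same test 24.9% of all genes were called lower and 23.0% higher. The median log2 fold change, KO over VC, was -0.15 over the 32 genes, with a range of -0.90 to 0.25, and -0.01 over all genes tested. All 3 KO-labelled libraries lay below all 3 VC libraries for 21 of the 32 genes and above them for 6, where 29.8% and 25.8% of all genes tested did so. The summed level of the 32 genes was 3337, 3362 and 3375 CPM in KO-labelled cultures and 3905, 3838 and 3822 CPM in VC cultures.

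The MCM helicase held the lowest fold change. Mcm3 was at 150, 146 and 149 CPM in KO-labelled cultures and at 285, 273 and 278 CPM in VC cultures. The groups did not overlap, and the KO-labelled level was 0.536 of the VC level, a log2 fold change of -0.90 ± 0.04 (SE, adjusted p = 4.63e-09, edgeR). Mcm3 lies on chromosome 1, at bases 20802968 to 20820312 of the minus strand (GRCm38, ENSMUSG00000041859). Mcm2 was at 130, 131 and 132 CPM in KO-labelled cultures and 204, 195 and 189 CPM in VC cultures. Its log2 fold change was -0.57 ± 0.04 (adjusted p = 2.46e-07, edgeR), again without overlap, and the gene lies on chromosome 6 at bases 88883474 to 88898780 of the minus strand. Mcm6 was at 292, 286 and 289 CPM in KO-labelled cultures and 391.6, 375 and 382 CPM in VC cultures, a log2 fold change of -0.40 ± 0.04 (adjusted p = 3.44e-06, edgeR). Mcm6 lies on chromosome 1 as well, at bases 128331590 to 128359664 of the minus strand. Mcm5 was also lower (log2 fold change -0.26), Mcm4 was higher (0.13), and Mcm7 was not called (0.08). The subunits assemble in equal number in the ring, and their RNAs were called in both directions, with Mcm4 alone called higher. Mcm4 lost its call without KO-labelled culture 2 or VC culture 2, and was at -0.02, not called, with chromosome medians as offset.

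Per kilobase of exon, the order of the subunit levels differed between the labels. In KO-labelled cultures Mcm4 and Mcm6 stood at 62.5 ± 0.963 and 62.0 ± 0.707 CPM per kb (SD, n = 3), within their spread of each other, above Mcm5 at 55.9 ± 3.46 CPM per kb and Mcm3 at 39.6 ± 0.580 CPM per kb. In VC cultures Mcm6 was highest at 82.1 ± 1.76 CPM per kb, followed by Mcm3 at 74.2 ± 1.65, Mcm5 at 67.5 ± 0.0919 and Mcm4 at 57.3 ± 1.35 CPM per kb. Mcm7, at 29.97 ± 0.663 CPM per kb in KO-labelled cultures and 28.5 ± 0.544 in VC cultures, and Mcm2, at 18.8 ± 0.213 CPM per kb in KO-labelled cultures and 28.2 ± 1.07 in VC cultures, were the lowest in both. The exon length is the union of annotated exons, so a gene with long rarely used exons appears lower on this scale.

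**Figure D1:**
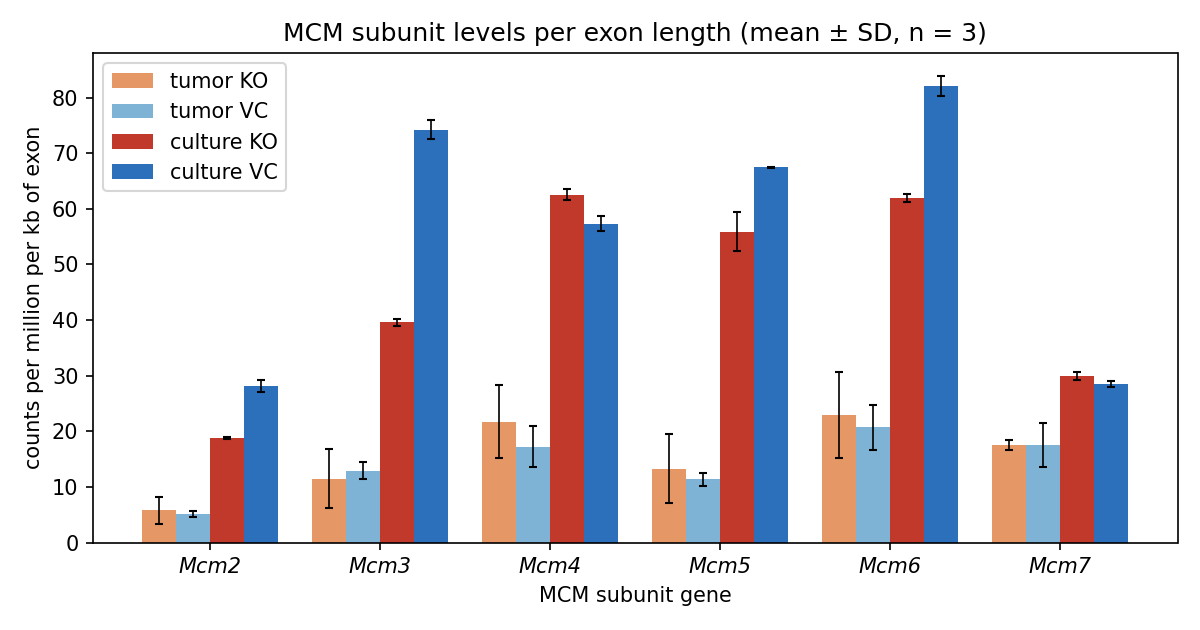
Levels of the 6 MCM ring subunits in CPM per kb of exon, as bars of the mean with SD over 3 libraries, for tumor KO, tumor VC, culture KO and culture VC. Mcm3 stands at 39.6 CPM per kb in KO-labelled cultures and 74.2 CPM per kb in VC cultures, while Mcm4 and Mcm7 differ little between the labels.

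Among the 7 licensing and activation factors, 3 were called lower and 1 higher. Cdt1, which brings the MCM ring to origins, was at 75.7, 79.0 and 78.4 CPM in KO-labelled cultures and 105, 103 and 110 CPM in VC cultures. The groups were apart, with a log2 fold change of -0.44 ± 0.04 (adjusted p = 2.72e-06, edgeR). Gins3, a GINS subunit, and Cdc6, the other loader, were lower by smaller amounts (log2 fold changes -0.28 and -0.17). Gins1, another GINS subunit, was higher at 14.3 ± 0.467 CPM in KO-labelled cultures and 12.1 ± 0.422 CPM in VC cultures (SD, n = 3 each), a log2 fold change of 0.25 ± 0.08 (adjusted p = 0.0168, edgeR). Cdc45 (-0.10), Mcm10 (-0.09) and Gins2 (0.08) were not called. Gins1 lost its call with DESeq2 and without KO-labelled culture 2, and was at 0.00 with chromosome medians as offset. With that offset Cdc45 (-0.25) and Mcm10 (-0.34) were called lower and Gins2 (0.17) was called higher.

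Among the 6 polymerase and primase genes, 4 were called lower and none higher. Prim2, the large primase subunit, was at 27.6, 26.5 and 29.4 CPM in KO-labelled cultures and 44.7, 41.5 and 38.7 CPM in VC cultures. Every KO-labelled library lay below every VC library, with a log2 fold change of -0.57 ± 0.07 (adjusted p = 1.65e-05, edgeR). Pola2, the regulatory subunit of polymerase alpha, was at 65.1, 63.6 and 65.5 CPM in KO-labelled cultures and 98.4, 86.9 and 79.8 CPM in VC cultures, where the VC libraries spread more widely. Its log2 fold change was -0.44 ± 0.06 (adjusted p = 0.000103, edgeR). The catalytic subunits of polymerases delta and alpha, Pold1 (-0.32) and Pola1 (-0.11), were also called lower. Prim1 (-0.08), the catalytic primase subunit, and Pole (-0.06), that of polymerase epsilon, were not called. With chromosome medians as offset both were called lower, Prim1 at -0.22 and Pole at -0.16.

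The clamp and its loader made up the one class with more genes called higher (2 of 6) than lower (1), where 23.0% and 24.9% of all genes were. This did not hold with chromosome medians as offset: Pcna, Rfc2 and Rfc3 were then called lower, and Rfc5 alone was called higher. Rfc5, a small loader subunit, was at 88.9 ± 1.99 CPM in KO-labelled cultures and 75.9 ± 3.48 CPM in VC cultures (SD, n = 3 each; log2 fold change 0.23 ± 0.04, adjusted p = 0.000750, edgeR). Rfc1, the large subunit, was at 336 ± 5.66 CPM in KO-labelled cultures and 300 ± 13.1 CPM in VC cultures (log2 fold change 0.17). Rfc3 was called lower (-0.19), and Rfc2 (-0.07), Rfc4 (0.11) and the clamp gene Pcna itself (0.07) were not called. All 4 nucleotide synthesis genes were called lower. Rrm2, the regulated subunit of ribonucleotide reductase, was at 200, 203 and 198 CPM in KO-labelled cultures and 259, 250 and 256 CPM in VC cultures, with no overlap and a log2 fold change of -0.34 ± 0.04 (adjusted p = 1.08e-05, edgeR). Thymidylate synthase Tyms (-0.26), the large reductase subunit Rrm1 (-0.19) and thymidine kinase Tk1 (-0.14) fell by smaller amounts.

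Without a chromosome offset the 3 G1/S regulators did not move alike. E2f2, an activating E2F factor, was at 10.4, 10.5 and 10.7 CPM in KO-labelled cultures and 15.1, 15.9 and 15.1 CPM in VC cultures, a log2 fold change of -0.53 ± 0.07 (adjusted p = 8.07e-05, edgeR). Ccne1, which encodes cyclin E1, was at 15.3, 16.0 and 17.2 CPM in KO-labelled cultures and 18.5, 19.2 and 18.9 CPM in VC cultures. The groups did not overlap, and the log2 fold change was -0.21 ± 0.07 (adjusted p = 0.0230, edgeR). E2f1 was at 36.2, 33.8 and 36.0 CPM in KO-labelled cultures and 34.5, 37.8 and 36.3 CPM in VC cultures. Those values overlapped, and the log2 fold change was -0.03 ± 0.06 (adjusted p = 0.746, edgeR). With chromosome medians as offset E2f1 was at -0.27 and E2f2 at -0.25, both called lower. Ccne1 was then at -0.16, not called.

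The calls of small size depended on single libraries or on the tool. Pola1, Tk1, Ccne1, Cdc6 and Rfc3 lost their calls without KO-labelled culture 1, leaving 13 genes called lower, and DESeq2 also called 13 lower and 3 higher. Pola1 lost its call in each of the 6 fits without 1 culture, and Tk1 and Ccne1 in most of them. Mcm4 and Gins1 lost theirs without KO-labelled culture 2, leaving 2 genes called higher, and Mcm4 also without VC culture 2. With VC culture 3 left out 6 were called higher, Pcna and Rfc4 among them. When the 6 tumors were put in the same fit, which then shares their larger spread, Mcm3 alone kept its call (adjusted p = 0.0421, edgeR) and no gene was called higher, where 4.55% and 3.60% of all genes were called lower and higher.

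**Figure D2:**
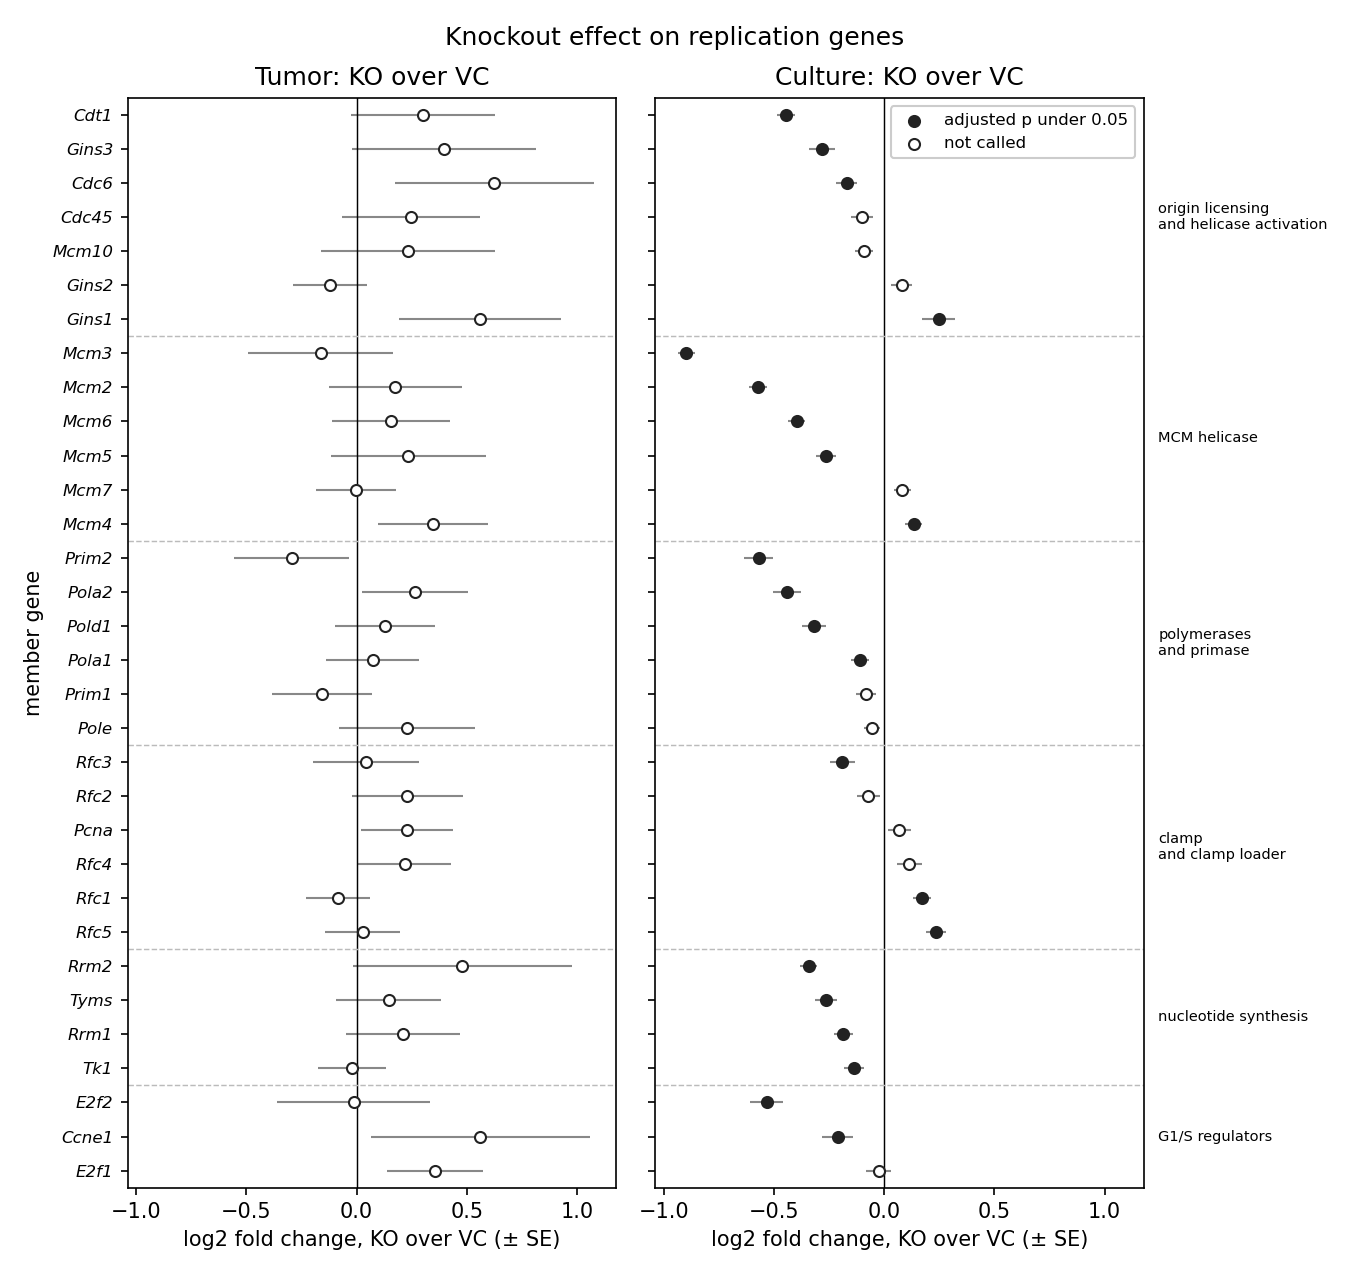
Log2 fold change, KO over VC, with SE from edgeR for each of the 32 genes, in tumors (left) and cultures (right), grouped by role; filled points have an adjusted p under 0.05. In cultures 18 genes are filled left of 0 and 4 right of 0, and in tumors every point is open with wider error bars.

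Fold changes in culture also differed between whole chromosomes. The median log2 fold change, KO over VC, of all well expressed genes was -0.45 on chromosome 6, which carries Mcm2, and -0.28 on chromosome 4, which carries E2f2. It was -0.12 on chromosome 1, with Mcm3, Mcm6 and Prim2, and -0.09 on chromosome 8, with Mcm5, Cdt1, Gins2 and Gins3. It was 0.25 on chromosome 2, with Gins1, Pcna, Mcm10 and E2f1, 0.15 on chromosome 16, with Mcm4, Cdc45 and Rfc4, and 0.10 on chromosome 5, with 7 genes of the group, Rfc1 and Rfc5 among them. A fit that took each chromosome's median as an offset called 23 of the 32 genes lower and 2 higher, where 20.5% and 19.7% of all genes were called, with 16 of the lower calls shared with the fit without offset. Relative to its chromosome Mcm3 stayed lowest, at a log2 fold change of -0.78, while Mcm2 was at -0.12 (adjusted p = 0.0326, edgeR, and 0.0611 with a replicate block as well) and E2f2 at -0.25. Gins1 was at 0.00 and Mcm4 at -0.02, neither called, and Rfc1 was at 0.07, not called. Pcna turned to -0.18 (adjusted p = 0.0154, edgeR) and Mcm10 (-0.34), E2f1 (-0.27), Cdc45 (-0.25), Prim1 (-0.22), Rfc2 (-0.17) and Pole (-0.16) were called lower, while Tk1 and Ccne1 were no longer called. The 2 genes called higher were Gins2 (0.17) and Rfc5 (0.13). What sets the chromosome medians was not tested.

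**Figure D3:**
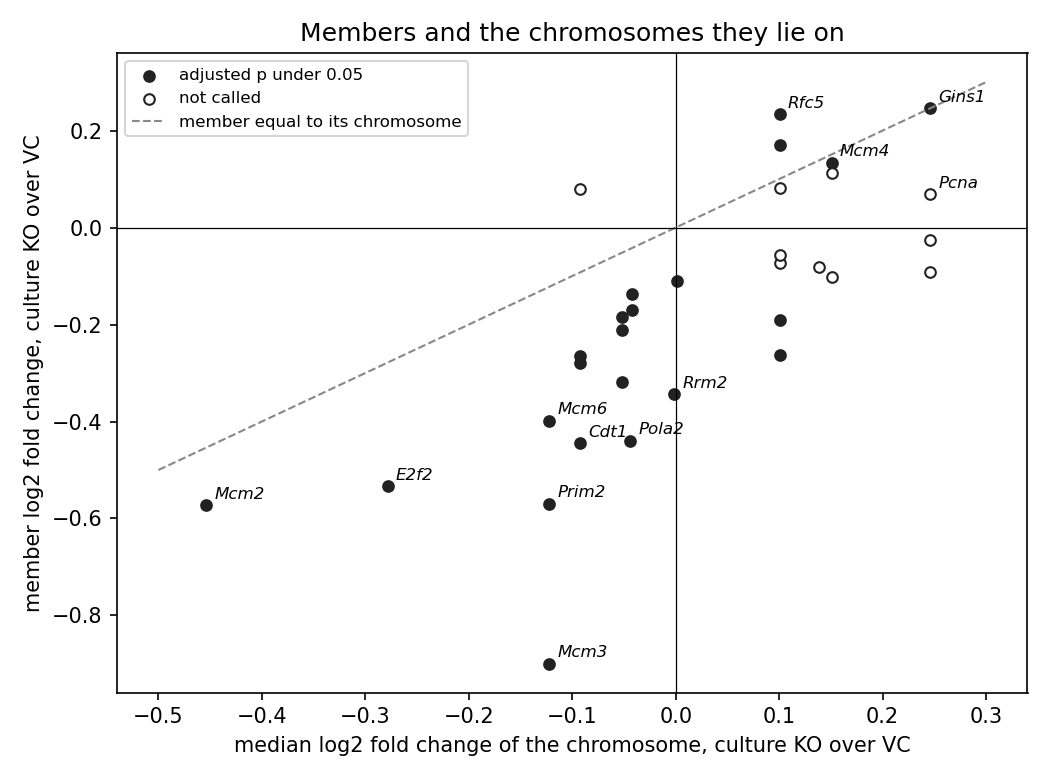
Culture log2 fold change, KO over VC, of each of the 32 genes against the median log2 fold change of its chromosome; filled points have an adjusted p under 0.05 and the dashed line marks a gene equal to its chromosome's median. Mcm2 and Gins1 lie close to the line, whereas Mcm3, Prim2, Cdt1, Pola2 and Rrm2 lie well below it.

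The strand used in counting is not given in the sources used here, and several of the genes share exon bases with a neighbour on the opposite strand. Gins2 shares 67.3% of its exon bases with Gse1, so its values are uncertain. Its neighbour held 147% of the counts of Gins2. The shares were 15.1% for Rfc2 with Lat2, 12.7% for Rfc4 with Eif4a2, 10.7% for Rfc5 with Wsb2, 7.25% for Mcm7 with Ap4m1 and 5.96% for Cdc45 with Ufd1. The neighbour had far more counts than the gene itself for Rfc4 (2312%), and more for Cdc45 (152%) and Rfc5 (131%). Depending on counting settings that are not given, counts of these genes may hold reads of the neighbour or lack reads from the shared bases.

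Since the group is named after E2F, its promoters were searched for E2F letters. RefSeq promoter windows (GRCm38.p6, 250 bases before to 50 after the start) matched 26 of the 32 genes; Mcm4, Rfc2, Prim2, Pole, Gins1 and Gins2 were not matched. The 8-letter forms TTTCCCGC, TTTCGCGC, TTTGCCGC and TTTGGCGC, on either strand, were found in 11 of 26 genes (42.3%) and in 2.61% of all genes with a window. The letters CCAAT, bound by NF-Y, were in 61.5% of the 26 genes and 41.1% of all genes, and the CHR letters TTTGAA in 15.4% and 20.2%. Matches of different letters can share bases. Of the 17 genes called lower in culture that had a window, 10 held an E2F form, against 1 of 7 not called and 0 of 2 called higher. This split depends on the fit. With chromosome medians as offset Mcm10, Pcna, Prim1, Cdc45 and E2f1, which held no E2F form, were also called lower. Tk1 and Ccne1, again without the form, were then not called. A link between the letters and the calls was not tested. Among the genes called lower, the median culture log2 fold change was -0.30 with the E2F letters and -0.26 without. The Mcm6 promoter is shown because it holds 3 matches, the most of the group, 2 of them overlapping. The stretch lies at chr1:128359736-128359835 on the minus strand, 130 to 31 bases before the start, with the matches in capitals.
Mcm6: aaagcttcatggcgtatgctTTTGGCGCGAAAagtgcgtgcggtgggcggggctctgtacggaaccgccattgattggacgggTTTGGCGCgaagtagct

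The same letters before the start of other members are given as 30-base stretches, to set genes called lower beside one that was not called. In capitals are the matched letters, 5′ to 3′ on the strand of the gene. Mcm5, Cdc6 and Gins3 were called lower in KO-labelled cultures, and Mcm7 was not called. The Mcm5 site lies at chr8:75109347-75109376 (plus strand), that of Cdc6 at chr11:98908002-98908031 (plus), that of Gins3 at chr8:95633507-95633536 (plus) and that of Mcm7 at chr5:138172030-138172059 (minus).
Mcm5: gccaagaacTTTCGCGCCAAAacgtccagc
Cdc6: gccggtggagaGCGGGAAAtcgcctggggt
Gins3: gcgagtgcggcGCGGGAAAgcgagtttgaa
Mcm7: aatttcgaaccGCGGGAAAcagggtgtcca
Cdc6, Gins3 and Mcm7 carry the same 8 letters while their culture log2 fold changes were -0.17, -0.28 and 0.08. A match is a description of the letters and does not show that a factor binds there.

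Other genes of the same processes were counted from fixed lists, with no test of the lists themselves. Of 50 further replication genes, 24 were called lower and 5 higher in KO-labelled cultures, with a median log2 fold change of -0.12, beside 24.9% and 23.0% of all genes. Among them Clspn, a fork checkpoint adaptor, was at -0.46 ± 0.05, Nasp, a histone chaperone, at -0.41 ± 0.04, and the fourth GINS gene, Gins4, at -0.52 ± 0.06, all called lower. Of 20 further nucleotide synthesis genes, 8 were lower and 5 higher, where the higher count is near the share over all genes. Shmt2 (-0.62), a mitochondrial enzyme of one-carbon metabolism, and Impdh1 (-0.58), of guanine nucleotide synthesis, were lower, while Samhd1 (0.34), which degrades deoxynucleotides, was higher. Of 29 tested E2F, RB and cyclin regulators, 15 were lower and 5 higher. The D-type cyclins Ccnd2 (-1.10) and Ccnd1 (-0.61) and the repressor E2f4 (-0.52) were lower, and so was the cyclin-dependent kinase inhibitor Cdkn1a (-1.59 ± 0.13, adjusted p = 8.77e-07, edgeR). Of 20 mitotic genes, 9 were lower and 5 higher, where the higher count is again near the share over all genes. Foxm1 (-0.79), a transcription factor of the G2/M programme, and Cdc20 (-0.59), an activator of the anaphase-promoting complex, were among the lower.

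Several of these genes lie on the chromosomes with shifted medians. With chromosome medians as offset, an alternative added for these lists after the data were seen, 21 of the 50 replication genes were lower and 3 higher, 6 and 1 of the 20 nucleotide synthesis genes, 16 and 1 of the 29 regulators, and 12 and 0 of the 20 mitotic genes, where 20.5% of all genes were lower and 19.7% higher. Impdh1 on chromosome 6 was then at -0.13 and Samhd1 on chromosome 2 at 0.10, neither called. On chromosome 6 Ccnd2 was at -0.64 and Foxm1 at -0.34, and on chromosome 4 Clspn was at -0.19, Nasp at -0.13 and Cdc20 at -0.31, all still called lower. Shmt2 (-0.75), Ccnd1 (-0.56), E2f4 (-0.43), Gins4 (-0.43) and Cdkn1a (-1.51), on chromosomes whose medians were nearer 0, were also called lower.

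In tumors none of the 32 genes was called in either direction. With edgeR 0 of 17153 genes were called higher and 0 lower (0% each) at an adjusted p under 0.05, 956 genes had an unadjusted p under 0.05, and none of those was among the 32. DESeq2 called 0.152% of all genes higher and 0.233% lower, and again 0 of the 32. The smallest adjusted p of the group was 0.861. Of the fold changes, none of them called, 24 were above 0 and 8 below, with a median of 0.21 and a range of -0.30 to 0.63, beside a median of 0.02 over all genes. The KO-labelled and VC tumors overlapped for all 32 genes, where 4.96% of all genes had every KO-labelled tumor above and 5.43% every one below.

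The KO-labelled tumors differed widely among themselves. The summed level of the 32 genes was 971 CPM in tumor KO_8454, 1316 in KO_8455 and 1552 in KO_8459, and 1324, 1169 and 1059 CPM in tumors VC_8447, VC_8448 and VC_8451. Mki67, a marker of cycling cells, followed the same order within the KO-labelled tumors, at 249, 421 and 768 CPM, and was at 391, 179 and 260 CPM in the VC tumors. The share of counts in ribosomal and other small RNA genes was 5.10%, 2.95% and 2.93% in the KO-labelled tumors and 2.31%, 4.06% and 5.82% in the VC tumors. It was thus highest in KO_8454, VC_8451 and VC_8448, the tumors with the lowest summed level of the 32 genes, and its part in the result was not tested. Mcm3 was at 23.8, 41.6 and 63.9 CPM in KO-labelled tumors and 55.0, 45.5 and 45.4 CPM in VC tumors, so the KO-labelled values reached both below and above the VC values (log2 fold change -0.16 ± 0.33). Mcm2 was at 23.6, 40.2 and 56.8 CPM in KO-labelled tumors and 35.0, 39.7 and 32.4 CPM in VC tumors (0.18 ± 0.30). Mcm6 was at 69.2, 110 and 141 CPM in KO-labelled tumors and 118, 91.1 and 80.8 CPM in VC tumors (0.16 ± 0.27). Each of the 3 helicase genes was lowest of all 6 tumors in tumor KO_8454 and highest in KO_8459.

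Rrm2 was at 19.0, 46.2 and 69.0 CPM in KO-labelled tumors and 51.1, 19.3 and 27.4 CPM in VC tumors (log2 fold change 0.48 ± 0.50). Cdt1 was at 16.3, 31.97 and 30.7 CPM in KO-labelled tumors and 16.3, 29.4 and 18.2 CPM in VC tumors (0.30 ± 0.33). For both genes the lowest tumors of either label were nearly level, and no group stood apart. Pola2 was at 24.9, 37.8 and 40.4 CPM in KO-labelled tumors and 33.7, 30.2 and 22.3 CPM in VC tumors (0.27 ± 0.24). Prim2 was at 15.9, 19.7 and 25.3 CPM in KO-labelled tumors and 30.3, 18.3 and 26.6 CPM in VC tumors (-0.30 ± 0.26). These 2 subunits of the polymerase alpha and primase complex had opposite signs, neither called.

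E2f2 was at 6.51, 8.13 and 14.9 CPM in KO-labelled tumors and 8.91, 9.47 and 11.4 CPM in VC tumors (log2 fold change -0.01 ± 0.35). E2f1 was at 16.9, 15.7 and 19.5 CPM in KO-labelled tumors and 17.0, 11.9 and 12.2 CPM in VC tumors. Ccne1 was at 2.89, 3.14 and 8.95 CPM in KO-labelled tumors and 4.24, 2.88 and 3.19 CPM in VC tumors. Ccne1 in tumor KO_8459 stood apart from the other 5 tumors, and E2f2 and E2f1 were also highest there. Of the markers of other cells, those of B and plasma cells, leukocytes, T and NK cells, and macrophages and monocytes were also highest in that tumor. The 8 macrophage and monocyte markers summed to 1034 to 2253 CPM in KO-labelled and 760 to 1591 CPM in VC tumors. The 5 B and plasma cell markers summed to 1123 CPM in it, to 4.04 and 26.4 CPM in tumors KO_8454 and KO_8455, and to 1.32 to 7.64 CPM in VC tumors. The 4 leukocyte markers summed to 333 to 892 CPM in KO-labelled and 213 to 374 CPM in VC tumors, with the highest value in KO_8459. The 6 fibroblast markers summed to 3491 to 6541 CPM in KO-labelled and 2326 to 3782 CPM in VC tumors, with the highest value in KO_8455, and the 7 epithelial markers to 1586 to 1873 CPM in KO-labelled and 1740 to 2131 CPM in VC tumors. The 7 neutrophil markers summed to 132, 521 and 140 CPM in tumors KO_8454, KO_8455 and KO_8459, and to 67.1, 442 and 368 CPM in VC tumors. No marker of these lists was at 0 in either tumor group as a whole, and the part of host cells in the tumor values was not tested. In bulk samples fewer cells of a type and less RNA per cell cannot be told apart.

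**Figure D4:**
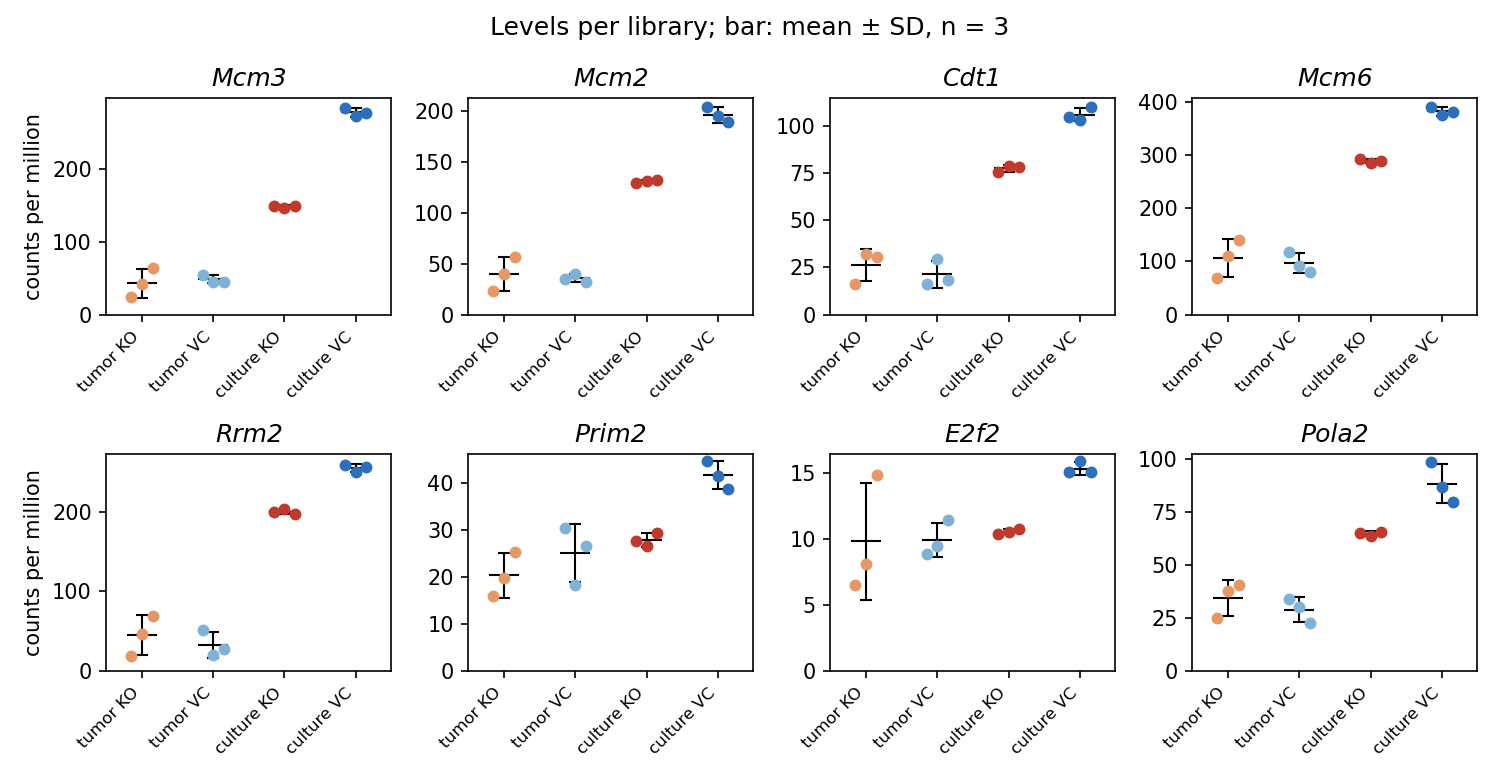
CPM of the 8 genes with the smallest p in culture, 1 point per library with the mean and SD over 3 libraries, for tumor KO, tumor VC, culture KO and culture VC. In cultures the KO-labelled points lie below the VC points for all 8 genes, and in tumors the points of both labels overlap for all 8.

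The effect of the label in tumors minus that in culture was tested over all 12 libraries. None of the 32 genes was called in this test, where 1.13% of 18419 genes were called higher and 0.912% lower (edgeR), and DESeq2 also called 0 of them. In the edgeR test 3 of the 32 had an unadjusted p under 0.05, and the smallest adjusted p was 0.180, for Pola2. The median difference of log2 fold changes was 0.34 over the 32 genes and 0.03 over all genes, with 27 of the 32 above 0. The difference was 0.74 ± 0.35 for Mcm3, 0.75 ± 0.32 for Mcm2, 0.74 ± 0.33 for Cdt1, 0.56 ± 0.29 for Mcm6 and 0.83 ± 0.54 for Rrm2. It was 0.71 ± 0.25 for Pola2, 0.52 ± 0.36 for E2f2 and 0.28 ± 0.27 for Prim2. Tumor KO_8454 decided the count: without it, 9 of the 32 genes were called higher and 0 lower, where 4.18% and 4.12% of all genes were. Those 9 were Mcm2, Mcm3, Mcm5, Mcm6, Mcm10, Pola2, Cdc6, Cdt1 and Gins3, and the median difference was then 0.54. Mcm2 was at 1.01 ± 0.18 in that fit (adjusted p = 0.00887, edgeR) and Mcm3 at 1.02 ± 0.21 (adjusted p = 0.0144, edgeR). Leaving out tumor KO_8459 moved the differences the other way, to 0.33 for Mcm3, 0.41 for Mcm2, 0.30 for Mcm6, 0.37 for Rrm2, 0.08 for E2f2 and 0.09 for Prim2, with 0 genes called. Prim2 was also at 0.09 without tumor VC_8448. No chromosome offset was used in the difference test. The median log2 fold change of chromosome 6, with Mcm2, was -0.45 in culture and -0.04 in tumors. It was -0.28 and -0.07 on chromosome 4, with E2f2, and -0.12 and -0.08 on chromosome 1, with Mcm3, Mcm6 and Prim2. The part of these medians in the differences was not tested.

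Tumors held far less RNA of the group than cultures under both labels. In KO-labelled tumors against KO-labelled cultures 29 of 32 genes were lower and 0 higher, where 26.4% of all genes were lower and 37.7% higher (edgeR). In VC tumors against VC cultures 31 were lower and 0 higher, where 27.0% and 37.9% of all genes were. The median log2 fold change, tumor over culture, was -1.28 for the 32 genes and 0.16 for all genes under the KO label, and -1.52 and 0.17 under the VC label. Every KO-labelled tumor lay below every KO-labelled culture for 31 of the 32 genes, and every VC tumor below every VC culture for all 32, where 32.2% and 31.7% of all genes did so. The 7 epithelial markers summed to 1586 to 1873 CPM in KO-labelled tumors against 3342 to 3426 CPM in KO-labelled cultures, and to 1740 to 2131 CPM in VC tumors against 2951 to 3287 CPM in VC cultures. The sum hides genes that went the other way. Under the KO label 4 of the 7 were called lower and 3 higher, namely Epcam (0.78), Krt14 (3.11) and Cldn7 (2.95), and under the VC label 3 were lower and Epcam was higher (0.79). Many of the host cell markers held by tumors were at or near 0 in cultures, but Csf1r, Cd68, Col1a1 and Pdgfra passed the culture filter on low counts. Cd68 was at 0.39 in VC tumors over VC cultures, not called (adjusted p = 0.0510, edgeR), and at 0.78 under the KO label, called higher. The part of host cells in the lower levels was not tested, and tissue, growth conditions and library set cannot be told apart in this design.

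Rrm2 had the lowest estimate under both labels, with a log2 fold change of -2.13 ± 0.39 in KO-labelled tumors and -2.97 ± 0.41 in VC tumors, each over its own cultures. The tumor level was thus 0.228 of the culture level under the KO label and 0.128 under the VC label. Under the KO label Mcm10 (-2.12 ± 0.29), Pole (-2.10 ± 0.23), Mcm5 (-2.04 ± 0.27) and Mcm3 (-1.75 ± 0.25) came next. The first 3 of these lay within their SE of Rrm2, so the order among them is not settled. Under the VC label they were Cdc6 (-2.55 ± 0.35), Mcm5 (-2.54 ± 0.28), Mcm3 (-2.49 ± 0.26) and Mcm10 (-2.45 ± 0.30). Rrm2, Mcm10, Mcm5 and Mcm3 were at this end under both labels.

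The 3 genes that differed least were E2f2, Rfc3 and Prim2 under the KO label, and Gins2, Rfc3 and E2f2 under the VC label. E2f2 was at 0.952 of its culture level in KO-labelled tumors (log2 fold change -0.07 ± 0.25, adjusted p = 0.815, edgeR) and at 0.664 in VC tumors (-0.59 ± 0.26, adjusted p = 0.0596, edgeR). The VC value was called lower without a filter on low counts (adjusted p = 0.0209), with the stricter filter (0.0435), in a fit of only the 6 VC libraries (0.00725, all edgeR) and with DESeq2 (0.0490). Its culture level was itself lower in KO-labelled cells. Without tumor KO_8459 the E2f2 value was -0.58 and called lower (adjusted p = 0.00763, edgeR). Rfc3 was at -0.28 ± 0.16 in KO-labelled tumors (adjusted p = 0.148, edgeR) and -0.52 ± 0.17 in VC tumors (adjusted p = 0.0166, edgeR). Prim2 under the KO label was at -0.43 ± 0.19 (adjusted p = 0.0658, edgeR), and it was called lower without a filter (adjusted p = 0.0128, edgeR) and with the stricter filter (adjusted p = 0.0407, edgeR). Rfc3 under the KO label was called lower without a filter (adjusted p = 0.0286, edgeR). Gins2 under the VC label was at -0.46 ± 0.10 (adjusted p = 0.00176, edgeR). Without tumor KO_8459 all 32 genes were called lower under the KO label, and without tumor VC_8451 Rfc3 was no longer called, leaving 30 under the VC label.

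The other lists also held more genes called lower than higher in tumors. Of all genes, 26.4% were lower and 37.7% higher under the KO label, and 27.0% and 37.9% under the VC label. Of the 50 further replication genes, 41 were lower and 3 higher in KO-labelled tumors, and 44 and 3 in VC tumors. All 20 mitotic genes were lower under both labels, with medians of -1.65 in KO-labelled and -2.19 in VC tumors. Of 30 tested E2F, RB and cyclin regulators, 15 were lower and 8 higher in KO-labelled tumors, and 18 and 4 in VC tumors, and of 20 nucleotide synthesis genes 17 were lower and 2 higher under each label. Between the labels within tumors, no gene of these 4 lists was called with edgeR, and medians were 0.12, 0.38, -0.02 and 0.08 in the order named here.

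**Figure D5:**
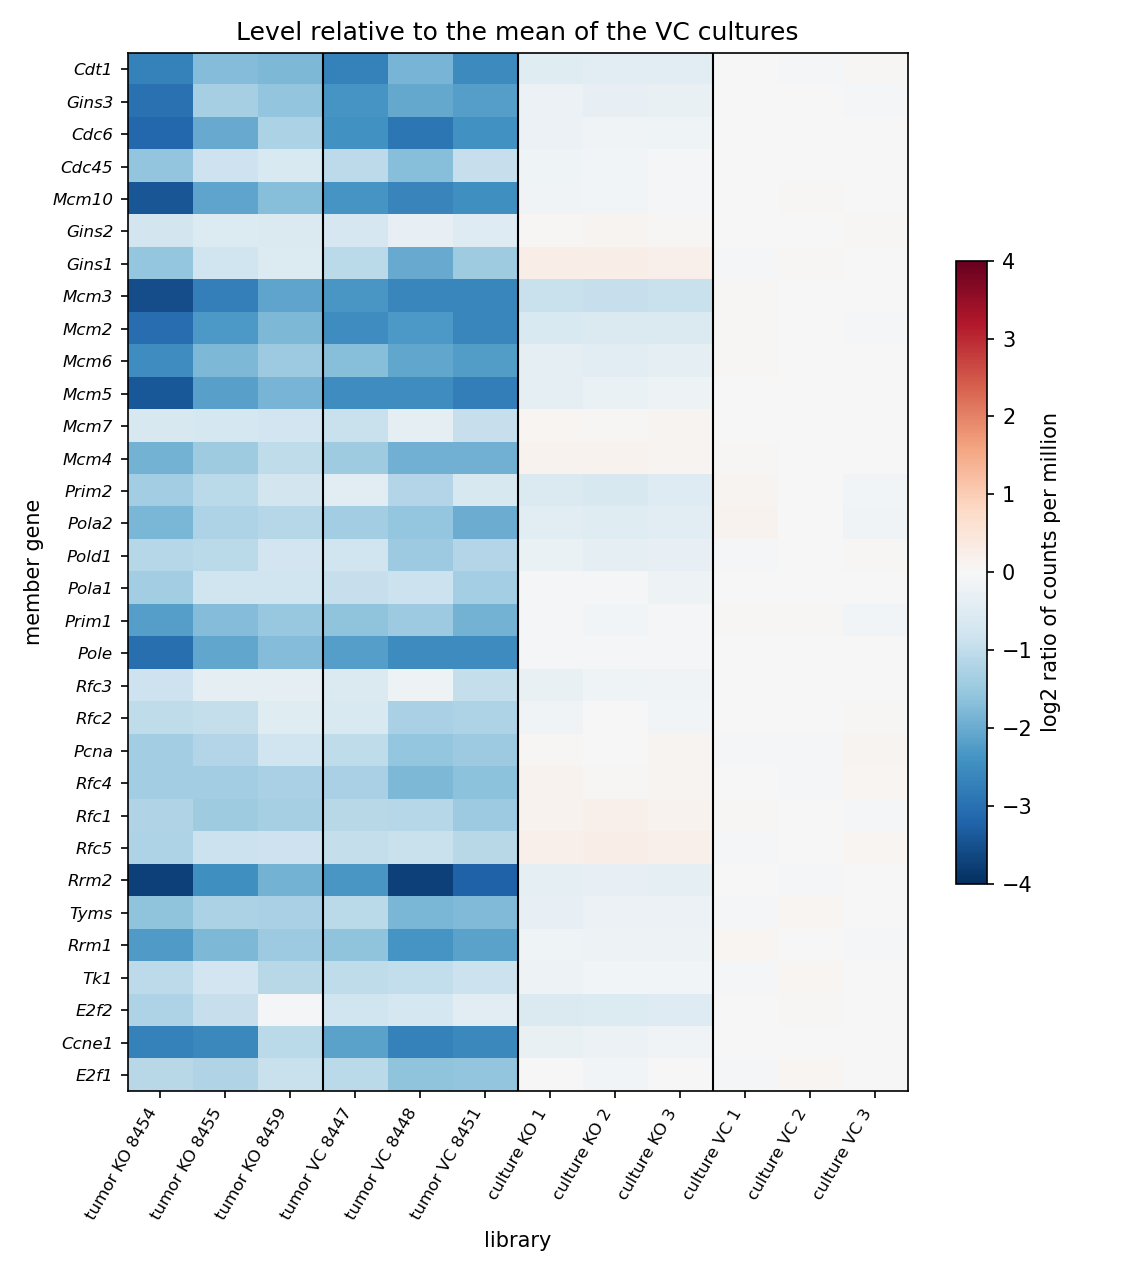
Log2 ratio of the CPM of each gene in each library to its mean in VC cultures, in the order tumor KO, tumor VC, culture KO and culture VC, with blue for lower and red for higher. Tumor columns are blue nearly throughout, deep for Rrm2, Mcm3, Mcm5, Mcm10, Mcm2 and Cdc6, and pale for Gins2, Mcm7, Rfc3 and E2f2.

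The genes were compared by how closely each followed the mean of the other 31 in log2 CPM, as a description. The points share library depth and fall into cultures and tumors, so a correlation over all 12 mostly reflects the gap between them. Over the 12 libraries Pole, Mcm6 and Mcm5 were closest, with Pearson's r of 0.997, 0.995 and 0.995. E2f2, Prim2 and Rfc3 were farthest, with r of 0.661, 0.782 and 0.819. The order over the 6 tumors alone was different. There Pole (0.990) and Mcm6 (0.979) were again the closest, Mcm10 (0.942) came before Mcm5 (0.929), and the lowest values were those of Mcm7 (-0.33), Rfc1 (-0.19), Tk1 (-0.10) and Gins2 (-0.01), below Prim2 (0.526), Rfc3 (0.533) and E2f2 (0.659).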

How the data were processed

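The authors deposited raw counts per gene for 6 cultures and 6 tumors in separate tables. Per the labels' protocols, RNA was column purified and libraries were made with ribosomal RNA depletion. The submitters' processing notes name Trimmomatic 0.32, STAR 2.3.0e, featureCounts 1.4.4 and mm10. Their settings and the strand mode are not given in the sources used here. From the deposited counts, CPM was computed over each library's total, and edgeR 4.0.16 (R 4.3.3) gave TMM scaling, filterByExpr with a minimum count of 10, and quasi-likelihood tests with Benjamini-Hochberg adjustment over all genes. KO over VC was fitted in cultures and tumors apart; the difference and tumor over culture came from 1 fit of 12 libraries with 4 groups. SE is the absolute log2 fold change divided by the square root of F. Alternatives were RLE and upper-quartile scaling, other filters, DESeq2 1.42.0, leaving out each library, a replicate block and chromosome medians as offset (computed over genes whose average log2 CPM reached 3). Gene positions came from GENCODE M21, which holds 37607 of the 39017 gene IDs. No pair of libraries agreed within counting noise. The tests were first run on simulated counts. All 32 genes have a culture fold change in the text. Values per library are given for the 8 with the smallest culture p, E2f1 and Ccne1, and tumor over culture for the 5 largest and 3 smallest; other values were chosen after they were seen. The members and lists were chosen with earlier results of these data known.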

Additional observations from a re-analysis of the deposited data

How the results depend on the processing

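The 18 and 4 culture calls (lower and higher) became 1 and 0 with all 12 libraries in 1 fit, and 2 were higher with chromosome medians as offset and with the replicate block and that offset. Leaving out a culture gave 2 to 6 genes called higher and 13 to 17 lower; leaving out a library gave 0 to 9 called higher in the difference test. Reversed signs, by library left out, ranged from -0.045 to 0.0072 for E2f1 in culture, from -0.58 to 0.12 for Mcm3, -0.46 to 0.20 for E2f2, -0.17 to 0.44 for Mcm2 and -0.11 to 0.39 for Mcm6 in tumors, and from -0.58 to 0.14 for E2f2 in KO-labelled tumors over cultures. E2f2 in tumors was 0.00975 without a filter. With chromosome medians as offset Mcm4 was -0.017, Mcm7 -0.019, Pcna -0.18 and Rfc4 -0.037, and with the replicate block as well they were -0.017, -0.020, -0.18 and -0.039. The culture replicate numbers did not pair the samples (correlations of deviations -0.087, -0.011 and 0.023), and the replicate block gave 17 lower and 4 higher, and with the offset 20 lower, without the calls of Mcm2, Pola1 and Cdc6 (adjusted p 0.0611, 0.0753 and 0.0814, edgeR); tumors share no numbers. The 12-library fit shares the spread of the tumors, and the offset shifts each chromosome by construction; for the other changes the cause was not tested. Depth was lowest in the VC tumors. The chi-square over degrees of freedom between pairs of libraries was 37.3 to 68.9 in KO-labelled and 22.3 to 31.7 in VC tumors. It was computed on raw counts and rises with depth, so it cannot compare the spread of the 2 groups.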
